A study of Mus musculus with 6 samples.

Results

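The genes described here encode the pyruvate dehydrogenase complex and the enzymes that switch it off and on. They were taken by symbol, and all 10 listed genes were present among the 32285 genes of the count table: 4 subunits (Pdha1, Pdhb, Dlat and Pdhx), 4 kinases (Pdk1, Pdk2, Pdk3 and Pdk4) and 2 phosphatases (Pdp1 and Pdp2). RNA was sequenced from germline stem (GS) cells, the cultured form of mouse spermatogonial stem cells, of the line DBA-GFP, labelled wild type. The control group of 3 libraries came from cells kept in complete medium, and the pyruvate group of 3 libraries from cells kept in medium named for 8 mM pyruvate. The labels name 1 cell line for both groups, do not list the other components of either medium or the pyruvate already in complete medium, and do not say whether feeder cells were present or whether each library is its own culture. The spread behind every p-value is therefore that among these libraries and may be technical.

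Pyruvate dehydrogenase sits in the mitochondrial matrix and turns pyruvate into acetyl-CoA, the step that commits the end product of glycolysis to the TCA cycle or to lipid synthesis. The kinases phosphorylate the E1 alpha subunit and stop the enzyme, and the phosphatases remove the phosphate and restart it. Pyruvate itself inhibits the kinases, so much of this control acts on the proteins, which RNA counts do not show. Among the kinase genes, Pdk1 is a known target of the hypoxia-inducible factor and Pdk4 of PPAR, glucocorticoid and forkhead factors.

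Library totals ran from 20918312 to 26413080 counts. Control replicate 2 stood apart, at 36.5 on the first principal component against -27.2 to 0.81 for the other 5 libraries. The lowest value, -27.2, belonged to pyruvate replicate 1, and the remaining libraries fell between -4.64 and 0.81. On the second component control replicate 2 (7.33) lay near the pyruvate libraries (9.84 to 15.1), away from the other controls (-23.4 and -21.4). Values without control replicate 2 are given where they bear on a result. The label was checked against markers: 14 of 14 germ cell markers were tested, with summed levels of 3874 to 4489 CPM (counts scaled to a fixed library total) in control and 3981 to 4184 CPM in pyruvate libraries. Fibroblast and mesenchymal feeder markers summed to 108 to 124 CPM in control and 118 to 147 CPM in pyruvate libraries, with 9 of 12 tested. Of these 9, 4 lay above and 5 below 0, with a median log2 fold change of -0.11, pyruvate minus control. The collagen Col1a1 stood at 51.4 ± 2.55 and 66.1 ± 13.7 CPM (SD, n = 3 per group, log2 0.36), and the collagen Col3a1 at 8.19 ± 3.21 and 6.68 ± 2.99 CPM (log2 -0.30). Sertoli, Leydig, endothelial and macrophage markers summed to at most 29.6, 4.003, 28.0 and 7.06 CPM in any library. Fshr, Insl3, Emcn and Adgre1 had no count, but other markers of the same lists were counted in every library. Among them were Wt1 (Sertoli, 12.6 to 18.0 CPM), Star (Leydig, 2.56 to 3.89), Kdr (endothelial, 8.24 to 15.2) and Cd68 (macrophage, 4.24 to 6.78). The part of other cells in the results was not tested.

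Transcripts of the subunits were abundant and close to each other, those of the kinases spanned the widest range, and the phosphatases lay below the subunits. Levels between genes are given as TMM-normalized CPM per kilobase of merged exons, mean ± SD over 3 libraries. In control libraries Pdk1 led at 57.8 ± 5.59 CPM per kb, followed by Pdk3 at 38.1 ± 1.83. The subunits came next, with Pdhb (E1 beta) at 31.1 ± 1.22, Dlat (the E2 core that carries acetyl groups) at 25.9 ± 1.39, Pdha1 (E1 alpha, the phosphorylated subunit) at 25.3 ± 1.02 and Pdhx (which anchors the E3 enzyme to the core) at 16.4 ± 0.37 CPM per kb. Pdp1, the calcium-stimulated phosphatase, stood at 11.9 ± 2.08 and Pdp2, the isoform linked to insulin, at 7.41 ± 0.86 CPM per kb. Pdk2, a broadly expressed kinase, stood at 5.93 ± 0.44 and Pdk4, the kinase of fasting muscle and heart, was last at 0.073 ± 0.040 CPM per kb. Within the control group the ranges of Dlat and Pdha1 overlapped, and no other neighbours in this order did.

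In pyruvate medium the order of levels per kb was the same but for Dlat (21.3 ± 0.59) and Pdha1 (25.6 ± 1.05), which changed places, and no neighbouring ranges overlapped. Pdk1 again led at 49.5 ± 2.17 CPM per kb and Pdk3 followed at 35.6 ± 0.40. When the length of the longest annotated transcript was used in place of merged exons, Pdhb moved above Pdk3 in both groups, and the control ranges of these genes then overlapped. With that length Pdha1 lay above Dlat in both media, so that they did not change places, and Pdk2 and Pdp2 did instead, with ranges that overlapped in each medium. The ranges of Dlat and Pdhx then also overlapped in pyruvate medium. Pdk1 remained first and Pdk4 last with either length.

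**Figure D1:**
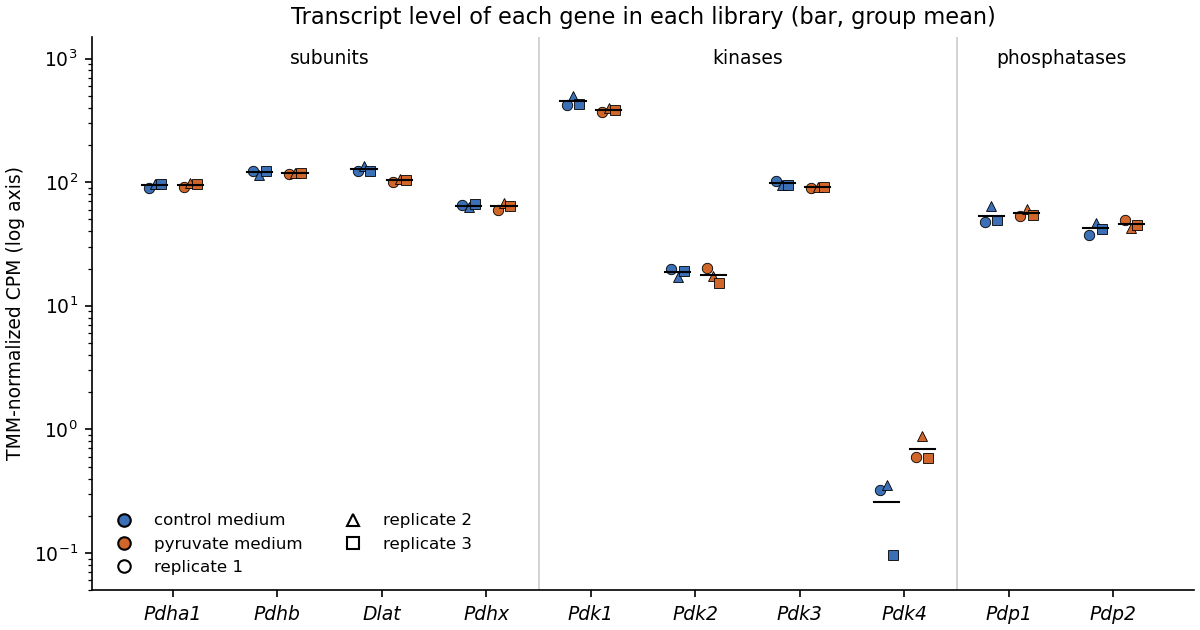
TMM-normalized CPM (log axis) of the 4 subunits, 4 kinases and 2 phosphatases in each library, with circles, triangles and squares for replicates 1, 2 and 3, blue for control and orange for pyruvate medium, and a bar at each group mean. Pdk1 lies at 368 to 500 CPM, and Pdk4 lies below 1 CPM in all 6 libraries. The groups are separated for Dlat, Pdk1, Pdk3 and Pdk4, as they are for 22.5% of all tested genes. Pdk4 met the filter on low counts in the pyruvate libraries only.

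The comparison of pyruvate with control medium asked whether cells given pyruvate carry different amounts of these transcripts. With all libraries, 0 of the 10 genes changed (edgeR, quasi-likelihood F test, p-values adjusted by Benjamini-Hochberg over 14912 tested genes), where 0.0536% of all tested genes were called. DESeq2, which called 2.13% of all tested genes, also called 0 of the 10 and gave Pdk4 no adjusted p. The filter on low counts asked for 0.429 CPM in 3 libraries. For 9 of the genes all 6 libraries met it, and Pdk4 met it in the 3 pyruvate libraries and in 0 control libraries, so it entered the test through the group where it was high. At an unadjusted p under 0.05 in edgeR there were 2 of the other 9 (Dlat and Pdk1), against 14.4% of all tested genes. The groups did not overlap for 3 of these 9 (Dlat, Pdk1 and Pdk3), against 22.5% of all tested genes. The median log2 fold change, pyruvate minus control, was -0.032 over the 9 genes, -0.026 with Pdk4 counted in, and -0.0099 over all tested genes. In bulk RNA, fewer cells of a type and less RNA per cell cannot be told apart. Intervals below are 95% intervals of the edgeR fit.

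Among the subunits, the E1 genes and Pdhx differed little and Dlat stood lower in pyruvate medium. Pdha1 (ENSMUSG00000031299, chromosome X, 160122209 to 160138413 on GRCm38) was at 90.2, 97.4 and 95.8 CPM in the control libraries, in the order of replicates 1 to 3, and at 91.03, 98.5 and 96.9 CPM in the pyruvate libraries. The groups overlapped throughout, and the fitted difference was 0.015 on the log2 scale (SE 0.076, interval -0.16 to 0.19, adjusted p = 0.945 in edgeR). Pdhb (ENSMUSG00000021748, chromosome 14, 8165996 to 8173025) was at 123, 115 and 123 CPM in control and 116, 118 and 119 CPM in pyruvate libraries, and its interval ran from -0.19 to 0.13 on the log2 scale. Pdhx (ENSMUSG00000010914, chromosome 2, 103021075 to 103073513) was at 64.7, 63.1 and 66.0 CPM in control and 59.5, 67.4 and 64.2 CPM in pyruvate libraries, with an interval of -0.21 to 0.17. For these 3 subunits each interval, taken alone and under the assumptions of this fit, lay within 0.21 of 0 on the log2 scale. Other fits reached further: without pyruvate replicate 2 Pdhx stood at -0.063 with a larger SE (0.101 against 0.081).

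Dlat (ENSMUSG00000000168, chromosome 9, 50634633 to 50659780) was at 122, 134 and 123 CPM in the control libraries and at 101.1, 107 and 104 CPM in the pyruvate libraries. Every pyruvate library lay below every control library, and control replicate 2 was the highest of the 6. The log2 fold change was -0.28 (SE 0.075, interval -0.46 to -0.11), 0.821-fold, with adjusted p = 0.170 in edgeR, so the difference did not pass the threshold over all genes. Without control replicate 2 it was -0.24 with adjusted p = 0.0536 in edgeR, in a fit that called 4.16% of tested genes, and over all libraries left out in turn the adjusted p ran from 0.0536 to 0.433. With each library's trend over GC content and transcript length removed, Dlat passed the threshold downward (log2 -0.27, adjusted p = 0.0220 in edgeR), in a fit that called 3.95% of tested genes. Its level per kb relative to Pdhx, its partner in the core, was 1.58 ± 0.12 in control and 1.31 ± 0.047 in pyruvate libraries, without overlap (1.498 to 1.71 against 1.27 to 1.37). Since Pdhx differed little between the media, this ratio mostly restates the Dlat values and adds no separate evidence. It was not tested.

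The kinases divided into 1 abundant gene that stood lower in pyruvate medium, 2 with small differences and 1 scarce gene that stood higher. Pdk1 (ENSMUSG00000006494, chromosome 2, 71873224 to 71903858) was at 422, 500 and 426 CPM in the control libraries and at 368, 401 and 386 CPM in the pyruvate libraries. The groups did not overlap, and control replicate 2 again lay above all others. The log2 fold change was -0.22 (SE 0.087, interval -0.42 to -0.025), with adjusted p = 0.297 in edgeR. Without control replicate 2 it shrank to -0.14 (adjusted p = 0.196 in edgeR), a change of over 1.5 times on the log2 scale. With GC and length trends removed Pdk1 passed downward (log2 -0.198, adjusted p = 0.0439 in edgeR).

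Pdk3 (ENSMUSG00000035232, chromosome X, 93764607 to 93832201), a kinase known from testis and brain, was at 103, 94.8 and 95.015 CPM in control and 89.95, 91.9 and 91.4 CPM in pyruvate libraries. The groups were separated by a gap smaller than the spread among controls, and the log2 fold change was -0.100 (SE 0.073, interval -0.27 to 0.068, adjusted p = 0.574 in edgeR). Without control replicate 1 it was -0.058. Pdk2 (ENSMUSG00000038967, chromosome 11, 95026258 to 95041354) was at 19.8, 17.2 and 19.2 CPM in control and 20.3, 17.3 and 15.3 CPM in pyruvate libraries. The highest and the lowest of these values both came from pyruvate libraries, and the interval ran from -0.38 to 0.20.

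Pdk4 (ENSMUSG00000019577, chromosome 6, 5483351 to 5496309) was counted 7, 9 and 2 times in control replicates 1, 2 and 3, and 15, 23 and 13 times in the same order of pyruvate libraries. This corresponds to 0.32, 0.35 and 0.095 CPM in control and 0.60, 0.89 and 0.59 CPM in pyruvate libraries, with control replicate 3 below its floor of 3 counts (0.143 CPM). The groups did not overlap, but the exact Poisson intervals of single libraries did: 0.16 to 0.67 CPM in control replicate 2 against 0.31 to 1.01 CPM in pyruvate replicate 3. Pooled over libraries, 18 counts in control and 51 in pyruvate medium gave a ratio of 2.65, with an exact 95% interval of 1.52 to 4.82 that covers counting error only. The fitted log2 fold change was 1.39 (SE 0.44, interval 0.38 to 2.40, adjusted p = 0.222 in edgeR), for a gene that passed the filter through the pyruvate libraries alone; with no filter the edgeR adjusted p was 0.246. With 1 library left out it ranged from 1.04 to 1.70 (edgeR adjusted p = 0.110 to 0.475).

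**Figure D2:**
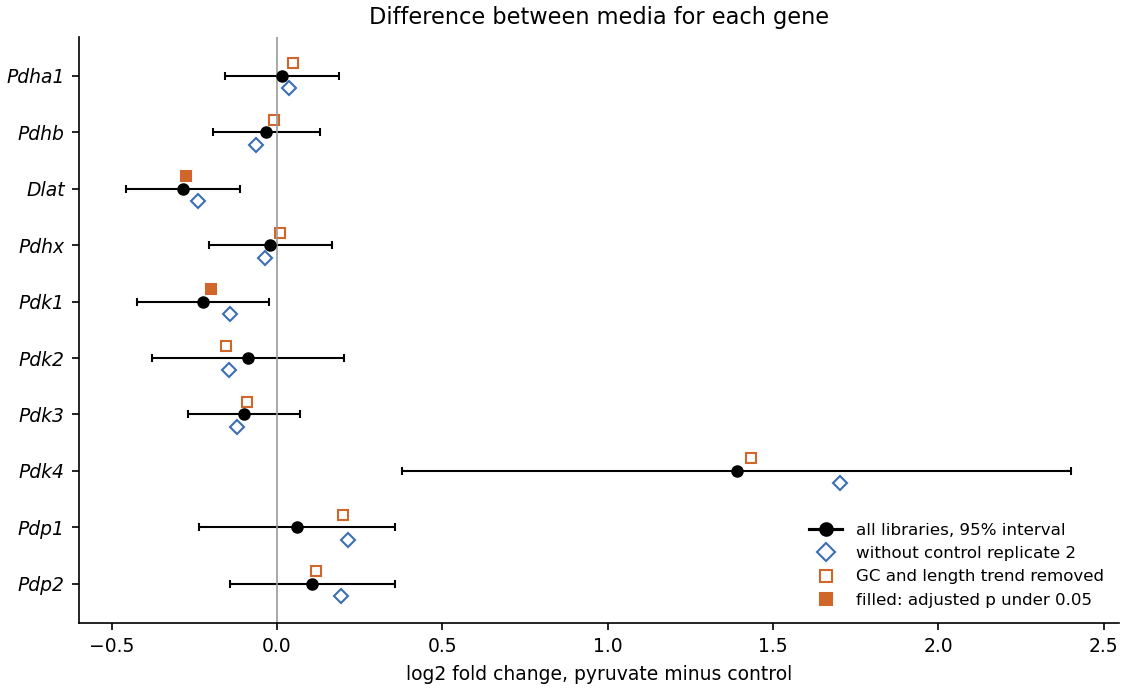
Log2 fold change, pyruvate minus control, of each gene with its 95% interval over all libraries (black), without control replicate 2 (blue diamonds) and with GC and length trends removed (orange squares); filled symbols passed adjusted p under 0.05. The filled symbols are Dlat and Pdk1 with trends removed, at -0.27 and -0.198, and Pdk4 has the widest interval, 0.38 to 2.40.

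As shares of the summed kinase level per kb, Pdk1 made up 56.6 ± 3.23% in control and 54.5 ± 1.19% in pyruvate libraries, and Pdk3 made up 37.5 ± 2.63% and 39.2 ± 0.58%. Pdk2 made up 5.84 ± 0.65% and 6.15 ± 0.97%. Pdk4 made up 0.071 ± 0.037% in control and 0.217 ± 0.048% in pyruvate libraries, so that the scarce kinase that stood higher remained well under 1% of the sum. These shares are descriptions, with no test, and those of Pdk1, Pdk2 and Pdk3 overlapped between the media.

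The phosphatases differed little with all libraries. Pdp1 (ENSMUSG00000049225, chromosome 4, 11958184 to 11966452) was at 47.3, 64.5 and 49.3 CPM in the control libraries and at 52.8, 60.8 and 54.5 CPM in the pyruvate libraries. Control replicate 2 lay above every pyruvate library and the other controls lay below them all. The log2 fold change was 0.060 (SE 0.13, interval -0.24 to 0.36, edgeR adjusted p = 0.862). Leaving out control replicate 2 moved it to 0.21 (edgeR adjusted p = 0.172). Pdp2 (ENSMUSG00000048371, chromosome 8, 104591451 to 104599026) was at 37.4, 47.1 and 42.0 CPM in control and 49.02, 42.4 and 44.9 CPM in pyruvate libraries, with a log2 fold change of 0.11 (SE 0.11, interval -0.14 to 0.36). Leaving out control replicate 1, control replicate 2 or pyruvate replicate 1 gave 0.028, 0.19 and 0.053 (edgeR adjusted p = 0.248 to 0.955 over the libraries left out).

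The 4 kinases together exceeded the 2 phosphatases per kb in every library. Their ratio was 5.91, 4.73 and 5.35 in the control libraries and 4.38, 4.45 and 4.52 in the pyruvate libraries. The groups did not overlap, with the 3 pyruvate libraries close together and control replicate 2 nearest to them. Pdk1 and Pdk3 set nearly all of the numerator. The ratio is of transcripts and was not tested, since it is a score over genes chosen together.

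**Figure D3:**
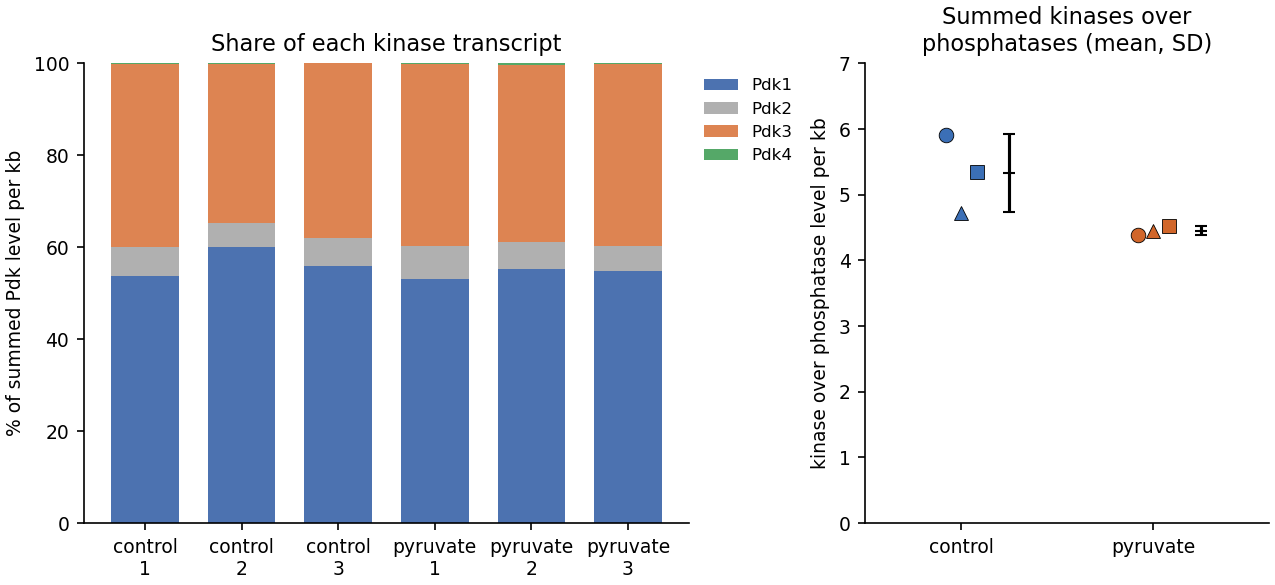
Left, the share of each kinase transcript in the summed kinase level per kb in each library, where Pdk1 and Pdk3 fill most of each bar and Pdk4, at most 0.27%, is barely visible. Right, the summed kinase level over the summed phosphatase level per kb in each library, with the mean and SD of 3 libraries beside the points; control lies at 4.73 to 5.91 and pyruvate medium at 4.38 to 4.52.

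Promoter windows are shown for the 3 genes with an unadjusted p under 0.05, Pdk1, Dlat and Pdk4. They were chosen after their values were seen. The sequences are from RefSeq on GRCm38.p6, 5′ to 3′ on the gene's strand, and cover up to 250 bases before the start that RefSeq gives, without bases inside the GENCODE gene. Capitals mark the hypoxia-response core (ACGTG or GCGTG), the GC box (GGGCGG) and the CCAAT box (CCAAT), each searched on both strands, none of them overlapping another here.
Pdk1 chr2:71872974-71873223 (+): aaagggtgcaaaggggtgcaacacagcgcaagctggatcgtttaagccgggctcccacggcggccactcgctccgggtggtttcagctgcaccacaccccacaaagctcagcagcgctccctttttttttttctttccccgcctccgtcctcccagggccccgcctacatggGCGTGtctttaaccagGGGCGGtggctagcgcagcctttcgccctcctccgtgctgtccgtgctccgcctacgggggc
Dlat chr9:50659781-50660030 (-): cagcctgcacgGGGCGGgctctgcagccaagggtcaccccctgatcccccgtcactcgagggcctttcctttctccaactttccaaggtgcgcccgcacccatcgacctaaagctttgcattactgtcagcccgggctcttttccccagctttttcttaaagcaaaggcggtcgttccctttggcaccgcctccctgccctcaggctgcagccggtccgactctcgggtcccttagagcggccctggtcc
Pdk4 chr6:5496310-5496528 (-): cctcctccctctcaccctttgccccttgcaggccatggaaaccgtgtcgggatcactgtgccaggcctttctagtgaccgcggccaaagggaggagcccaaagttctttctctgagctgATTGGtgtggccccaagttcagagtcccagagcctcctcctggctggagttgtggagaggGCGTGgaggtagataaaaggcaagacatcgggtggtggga

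Of the 10 genes 9 had an entry in the RefSeq promoter table. A hypoxia-response core lay 78 bases before the start of Pdk1 and 71 before that of Pdk4, and was found in 8 of the 9 windows and in 38.6% of 32851 promoter windows. The search covered the full 250 bases of every window, Pdk4 included, of which fewer are shown above. Distances are counted from the RefSeq start, which for Pdk4 lies 31 bases inside the GENCODE gene and so past the end of the sequence shown. A GC box lay 62 bases before the start of Pdk1 and 239 before that of Dlat, and was found in 6 of the 9 and in 32.7% of all windows. A CCAAT box lay 131 bases before the start of Pdk4, and was found in 5 of the 9 and in 33.8% of all windows. The nuclear receptor half-site (AGGTCA), part of the element that PPAR binds, was found in 0 of the 9 windows and in 14% of all, and the forkhead sequence (GTAAACA) in 0 of the 9 and in 3.17% of all. These matches describe letters in the windows and say nothing of binding.

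Across the 6 libraries Dlat and Pdk1 varied together (Pearson r = 0.95 of log2 CPM), while Pdhb varied opposite to Pdp2 (r = -0.86) and Pdp1 (r = -0.84). These are descriptions over 6 points that share the medium and control replicate 2. Of 10860 other genes with a mean of at least 5 CPM, those closest in pattern to Pdk1 were Sav1 (r = 0.998), Uggt2 (r = 0.997) and Cse1l (r = 0.996). The closest to Pdp1 were Foxn3 (r = 0.997), Casd1 (r = 0.993) and Ncoa7 (r = 0.992), and to Pdha1 Rab23 (r = 0.990), Ngly1 (r = 0.984) and 5530601H04Rik (r = 0.983). They are the highest of 10860 correlations each and are given with no test.

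Beside the 10 genes, 3 partners of the complex were measured. Dld, the E3 enzyme that reoxidizes the lipoyl arm and is shared with related complexes, was at 99.2, 114 and 103 CPM in control and 80.99, 92.5 and 87.6 CPM in pyruvate libraries. Like Dlat, it was lower in each pyruvate library than in any control, with a log2 fold change of -0.27 (SE 0.089, adjusted p = 0.225 in edgeR). Pdpr, the regulatory subunit of the phosphatase, was at 40.5, 101.1 and 49.01 CPM in control and 55.1, 71.1 and 66.96 CPM in pyruvate libraries. Control replicate 2 lay far above the rest: with it the media differed by 0.017 on the log2 scale (edgeR adjusted p = 0.985), and without it Pdpr rose by 0.52 (edgeR adjusted p = 0.0400). Under no other alternative run did Pdpr pass. Pdpr was chosen after its values were seen, and its exons overlap a non-coding gene on the opposite strand.

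Pdha2, an intronless autosomal copy of the X-linked Pdha1 that is known from meiotic and later male germ cells, was also counted in every library. Which cells carried it was not tested. Pdha2 was at 38.4, 37.5 and 40.0 CPM in control and 37.4, 37.9 and 36.6 CPM in pyruvate libraries, a difference of -0.051 on the log2 scale (SE 0.079, edgeR adjusted p = 0.806). Per kb, Pdha1 stood 1.54 ± 0.084 times as high as Pdha2 in control and 1.61 ± 0.070 times in pyruvate libraries. The annotated transcripts of Pdha1 and Pdha2 share 0 sequences of 31 bases, so reads of that length or longer without errors can be told apart between them. Pdha1 exons overlap 603 bases of Map3k15 on the opposite strand, and 15.6% of the 31-base sequences of Pdhb are also in Gm6123, so the counts of Pdha1 and Pdhb are uncertain to that extent.

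None of the genes around the complex passed edgeR's test over all genes with all libraries (0 rose and 0 fell in each of 7 lists), and up to 2 genes of lowest p in each list are given here. Of all 14912 tested genes, 7167 lay above and 7745 below 0. Of 13 genes for lipoate and thiamine supply, cofactors of the complex, 9 lay below 0, with a median log2 fold change of -0.056; Slc19a2, a thiamine transporter, stood at 50.95 ± 7.40 and 41.8 ± 3.71 CPM, and Cbr4, of mitochondrial fatty acid synthesis, at 18.0 ± 0.60 and 16.4 ± 0.69. Of 9 related dehydrogenase genes, 5 lay below 0 with a median of -0.027. Bckdhb and Bckdha, subunits of the branched-chain E1 enzyme, went opposite ways, at log2 -0.32 (adjusted p = 0.186) and 0.34 (adjusted p = 0.286 in edgeR), and Bckdha exons overlap 1171 bases of B3gnt8 on the opposite strand. With GC and length trends removed both passed (adjusted p = 0.0339 and 0.0491 in edgeR), Bckdhb downward and Bckdha upward, and Bckdhb also passed downward without control replicate 2 (edgeR adjusted p = 0.0346). Neither passed under any other alternative run.

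Of 11 tested genes for pyruvate entry and other fates, 5 lay above and 6 below 0, with a median of -0.016. Me1, the cytosolic malic enzyme that makes pyruvate, stood at 36.96 ± 0.99 and 30.3 ± 2.12 CPM (log2 -0.29, adjusted p = 0.213 in edgeR). Slc16a1, a carrier of pyruvate and lactate across the plasma membrane, stood at 146 ± 24.6 and 109 ± 12.4 CPM (log2 -0.42, edgeR adjusted p = 0.223). Slc16a1 passed downward once trends over GC and length were removed (log2 -0.34, adjusted p = 0.0248 in edgeR). Both were lower in each pyruvate library than in any control, and Me1 exons overlap 30 bases of an antisense gene.

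The regulators known to act on Pdk genes and the targets they share with them were described beside the kinases. Of 9 tested regulators, 4 lay above 0. Pparg, a lipid-activated receptor, stood at 0.43 ± 0.091 and 1.08 ± 0.30 CPM (log2 1.29, adjusted p = 0.162 in edgeR), so that it was scarce in both media. Foxo3, a forkhead factor, stood at 168 ± 19.3 and 214 ± 18.7 CPM (log2 0.35, adjusted p = 0.202 in edgeR), and rose without control replicate 2 (log2 0.44, adjusted p = 0.0158 in edgeR). Under the other alternatives run Foxo3 did not pass. Ppara, which drives Pdk4 in liver, was under the filter, at 0.26 and 0.14 CPM, and was chosen after its values were seen.

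Of 14 tested PPAR targets 10 lay above 0 with a median log2 fold change of 0.13, and of 13 tested hypoxia targets 10 lay above 0 with a median of 0.18. Over all tested genes 7167 of 14912 lay above 0, with a median of -0.0099. Cpt1a, which admits fatty acids to mitochondria, stood at 79.2 ± 4.07 and 121 ± 15.6 CPM (log2 0.61 with SE 0.11, edgeR adjusted p = 0.0937). Ndrg1 and Pfkfb3, a stress-responsive gene and an activator of glycolysis, stood at log2 0.70 and 0.65 (adjusted p = 0.114 and 0.116 in edgeR). Without control replicate 2, in a fit that called 4.16% of tested genes, Cpt1a, Ndrg1 and Pfkfb3 rose (adjusted p = 0.0110, 0.0245 and 0.0189 in edgeR). Fits that left out any other 1 library each called 0 to 3 genes in all and 0 of the listed genes. Cpt1a, Ndrg1 and Pfkfb3 also rose with trends over GC and length removed, where 3.95% were called (adjusted p = 0.0174, 0.0248 and 0.0228 in edgeR). DESeq2, which called 2.13%, called them too (adjusted p = 0.000704, 0.00252 and 0.0126). Cpt1a and Ndrg1, but not Pfkfb3, passed with no filter and with the replicate number as a block. None of these genes passed under the other alternatives run. Exons of Ndrg1 overlap genes on the opposite strand, so its counts are uncertain to that extent. Below 0 lay 3 hypoxia targets, Pgk1 (log2 -0.35), Egln3 (-0.15) and P4ha1 (-0.12), and 4 PPAR targets, of which Angptl4 (-0.21) was the lowest. Pdk1 itself, counted with neither list, also stood below 0.

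**Figure D4:**
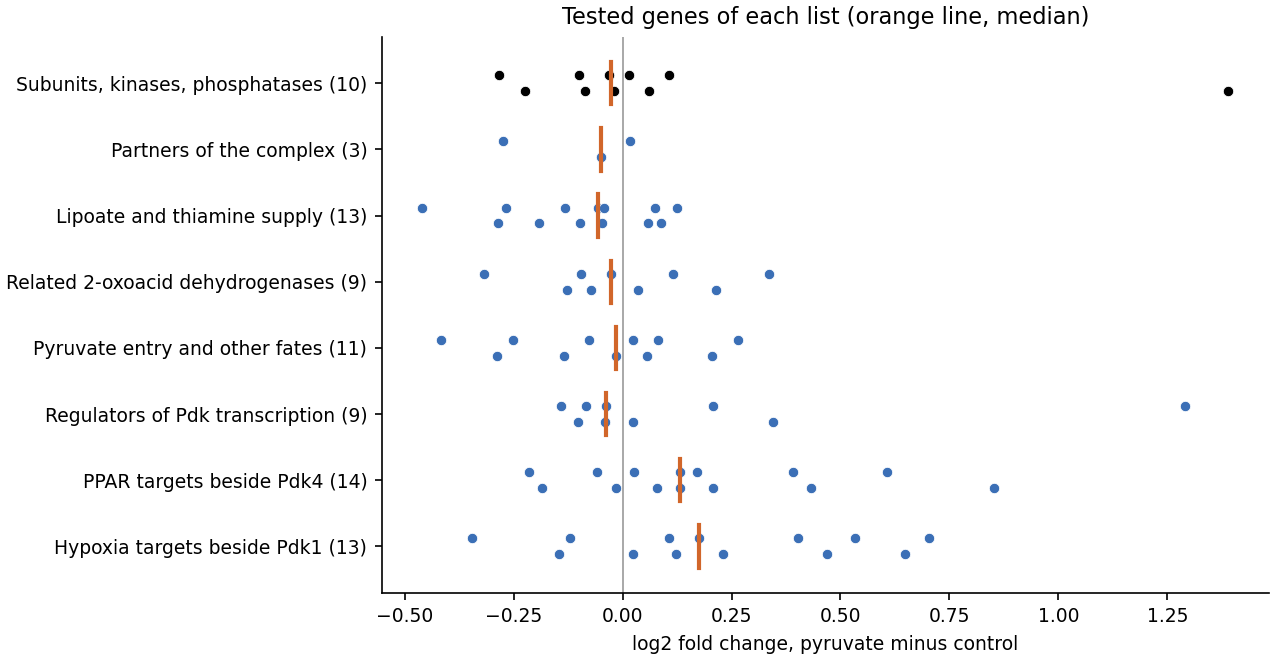
Log2 fold change, pyruvate minus control, of each tested gene in the complex and its regulators (black) and in 7 lists around it (blue), with the number tested in parentheses and an orange line at each median. The 10 genes have a median of -0.026 with Pdk4 far to the right at 1.39, and the medians of the PPAR and hypoxia lists lie at 0.13 and 0.18.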

How the data were processed

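The values the authors deposited are raw counts, 1 column per library. The submitters' processing notes name mm10 as the build, HTSeq 2.0.5, STAR 2.7.11a, cutadapt 4.6 and bcl2fastq 2.20. Which annotation release and strand setting served for counting is not given in the sources. The table has 3 columns for which no sample is held, and they were left out of all steps. With edgeR 4.0.16 in R 4.3.3, 14912 genes were kept by filterByExpr (minimum count 10), scaled by TMM and compared by the robust quasi-likelihood test, without covariates, at a Benjamini-Hochberg adjusted p of 0.05. Standard errors are the log2 fold change over the square root of F. Log2 CPM used a prior count of 2. Positions and exon lengths are from GENCODE M21. Counts of library pairs within a group differed by more than sampling noise, so each was kept. On simulated counts for these 14912 genes, the test called 61 of 100 genes set to differ 1.5-fold, 94 of 100 set to differ 2-fold and 11 set not to differ. The genes set to differ had means above 5 CPM, and genes varied independently, with no shift shared across genes in a library. These rates therefore do not cover Pdk4, at most 0.89 CPM, or the smaller differences of Dlat and Pdk1. Floors of 3 counts were 0.116 to 0.143 CPM; they and the exact intervals cover counting error only.

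The genes and lists were chosen with earlier results of these data known. The text names all 10 genes, genes past the threshold or else the 2 of lowest p in each list, and the 3 closest patterns to Pdha1, Pdk1 and Pdp1; 1 gene that this rule names is not reported here. The alternatives changed the scaling (size factors as in DESeq2, upper quartile, library totals), the filter (none, or 5 CPM in 3 libraries), the test (limma-voom with limma 3.58.1, or DESeq2 1.42.0), the length (longest transcript) and the libraries (each left out, or the replicate number as a block); removal of GC and length trends, by splines with 5 degrees of freedom, was chosen after seeing the data.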

Additional observations from a re-analysis of the deposited data

How the results depend on the processing

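Of the 10 genes, 0 were called under every alternative run except the removal of GC and length trends, which called 2, Dlat (log2 -0.27) and Pdk1 (-0.198); for Pdk4 DESeq2 gave no adjusted p and the filter at 5 CPM left it untested. The count over all genes, 8, was 14 with library totals (8 higher, 6 lower), 15 with upper-quartile factors (8 and 7), 83 with no filter, 317 with DESeq2, 265 with the replicate number as a block and 589 with trends removed, and 0 to 625 with 1 library left out: 3, 625 and 1 without control replicates 1, 2 and 3 and 1, 0 and 0 without pyruvate replicates 1, 2 and 3. The cause of these moves was not tested. Genes of the 7 lists called, 0 with all libraries, were 2 with no filter, 4 with DESeq2, 2 with the block, 8 with trends removed and 8 without control replicate 2 (0 to 8 over libraries left out). The lists held 3, 13, 9, 11, 9, 14 and 13 genes tested in the main fit. Of all tested genes, 2.13% were called with DESeq2, 3.95% with trends removed and 4.16% without control replicate 2. Deviations of same-numbered libraries correlated at 0.31, 0.31 and -0.073, and those of differently numbered libraries at -0.39 to 0.21. These values do not settle whether the numbers pair the libraries. The labels do not say that they do, so the main fit was left unpaired. The block called 0 of the 10 genes.

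With 1 library left out, log2 fold changes ranged from -0.016 to 0.054 for Pdha1, -0.063 to 0.032 for Pdhx, -0.197 to 0.0049 for Pdk2 and -0.021 to 0.21 for Pdp1, all reaching the opposite sign. Pdhx was also at 0.010 with library totals and with trends removed. Dlat, Pdhb, Pdk1, Pdk3 and Pdp2 kept their sign under every alternative run, and Pdk4 under every one but the filter at 5 CPM, which gave it no value. With the longest transcript as length, control levels per kb were 33.2 for Pdha1, 50.6 for Pdhb, 31.4 for Dlat, 25.8 for Pdhx, 86.7 for Pdk1, 8.35 for Pdk2 and 46.1 for Pdk3, and kinase shares were 61.3% for Pdk1 and 32.7% for Pdk3. Depth limits Pdk4, with 2 to 23 counts per library.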
